A study of Mus musculus with 287 samples.

Results

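Imprinted genes are transcribed mainly or only from the copy inherited from 1 parent. A list of 38 of them, taken by symbol, was followed in single cells of mouse cerebral organoids, and all 38 were found among the 55359 gene IDs of an exon count table and an intron count table. The stem cells behind the organoids had the genotype MADM-11GT/TG;Emx1-CreER+/-, shared by every cell, with Cre driven by Emx1, a gene of cortical progenitors. Cre was switched on with 60 nM 4-hydroxytamoxifen on day 13, and on day 20 single green or red cells were taken from clones by pipette for Smart-seq3 libraries. The labels type each clone as SN or N without saying what these letters stand for, and name a plate (1, 2 or 3) and a colour. A cell was kept if 1000 or more genes were detected by exon counts. On plates 1, 2 and 3 this held for 90 of 96, 80 of 93 and 77 of 95 labelled cells, and of the kept cells 53.0% were SN and 47.0% N, and 61.9% green and 38.1% red. No organoid or culture is named, so the spread between clones may hold less than the spread between cultures.

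At an imprinted locus, DNA methylation set in the egg or the sperm marks 1 parental copy, and the mark acts on several genes in a row, often through a long non-coding RNA or a CTCF-bound insulator. Many such genes set the growth of the embryo and placenta, and many are strongly used in the developing brain. MADM (mosaic analysis with double markers) places split GFP and tdTomato cassettes at the same site of both homologues of a chromosome, here chromosome 11. A Cre-driven exchange between them in a dividing progenitor can give a green and a red daughter that each hold both copies of the chromosome, distal to the cassettes, from 1 parent, opposite in the 2 colours. Grb10, Ddc, Zrsr1 and Commd1 are the members on chromosome 11. The labels do not say which colour carries which parent's copy.

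Kept cells had between 6171 and 13040432 exon counts. The median was 1365828 for SN and 1887116.5 for N cells, and 1521718 in green cells and 1512399 in red cells. Most cells had counts of neuron and radial glia genes of the cortex. Stmn2, a microtubule regulator of neurons, was counted in 96.8% of cells, and Fabp7, a lipid-binding protein of radial glia, in 95.5%. These were the most often counted of their lists. The least often counted were Bcl11b, a cortical neuron factor, in 77.3% of cells, and Hes5, a Notch target of radial glia, in 45.3%. The 6 excitatory neuron markers had a median sum of 5139 CPM (exon counts per 1000000) for SN and 4940 CPM for N cells, and the 6 radial glia markers of 2405 CPM for SN and 2141 CPM for N cells. Pou5f1, a pluripotency factor, was counted in 2.02% of cells.

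Promoter windows of 29 of the 38 genes were found in the RefSeq-based table for build GRCm38.p6, each covering 250 bases before and 50 after a start. The 45 windows of these genes held a median of 15 CpG dinucleotides, against 7 over all 32851 windows of the table. The hexamer TGCCGC, the letters bound by ZFP57 when methylated, was found on either strand in 28.9% of them, against 11.6% of all windows. The hexamer itself contains a CpG. Overlapping windows of a gene count separately, such as those of Mest that start at chr6:30737800 and chr6:30737803, each with 2 hexamers. The windows of 4 genes are shown with each CpG in capitals. Nnat is shown because its exon counts nearly equal the intron counts of Blcap, Zrsr1 and Grb10 because they lie on the chromosome exchanged here, and Peg3 because its window overlaps that of Usp29.
Nnat: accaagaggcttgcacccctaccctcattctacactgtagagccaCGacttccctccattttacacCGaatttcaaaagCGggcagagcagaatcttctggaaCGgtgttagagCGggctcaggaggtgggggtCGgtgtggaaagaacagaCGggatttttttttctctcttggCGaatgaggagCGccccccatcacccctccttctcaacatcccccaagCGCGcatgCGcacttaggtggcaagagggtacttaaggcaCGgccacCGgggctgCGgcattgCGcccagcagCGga
Zrsr1: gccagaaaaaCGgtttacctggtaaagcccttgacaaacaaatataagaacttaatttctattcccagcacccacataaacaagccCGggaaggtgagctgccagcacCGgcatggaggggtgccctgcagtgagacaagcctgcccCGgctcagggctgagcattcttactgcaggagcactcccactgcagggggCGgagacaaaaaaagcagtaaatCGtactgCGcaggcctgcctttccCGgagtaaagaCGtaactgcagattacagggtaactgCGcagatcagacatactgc
Grb10: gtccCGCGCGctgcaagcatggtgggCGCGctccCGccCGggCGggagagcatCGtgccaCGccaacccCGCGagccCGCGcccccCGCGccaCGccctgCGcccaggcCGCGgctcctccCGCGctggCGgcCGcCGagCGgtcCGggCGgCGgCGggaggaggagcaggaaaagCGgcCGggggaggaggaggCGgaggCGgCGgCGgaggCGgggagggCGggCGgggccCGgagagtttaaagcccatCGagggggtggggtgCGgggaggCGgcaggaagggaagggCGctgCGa
Peg3: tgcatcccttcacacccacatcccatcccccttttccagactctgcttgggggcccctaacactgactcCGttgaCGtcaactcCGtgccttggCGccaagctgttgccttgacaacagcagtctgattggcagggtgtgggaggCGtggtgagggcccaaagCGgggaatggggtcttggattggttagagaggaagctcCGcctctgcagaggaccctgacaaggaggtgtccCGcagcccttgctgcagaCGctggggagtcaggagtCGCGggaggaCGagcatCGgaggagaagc
The Nnat window lies at chr2:157559828-157560127 on the + strand, with 17 CpG and 1 hexamer. The Zrsr1 window lies at chr11:22971755-22972054 on the + strand, with 10 CpG and no hexamer. The Grb10 window shown lies at chr11:12037371-12037670 on the - strand, with 45 CpG, the highest number among the windows of the list, and 1 hexamer. Grb10 has another window, at chr11:12027922-12028221 on the - strand, with 9 CpG and no hexamer. The window with more CpG was the one picked for display. The Peg3 window lies at chr7:6730370-6730669 on the - strand, with 13 CpG and no hexamer, and the Usp29 window lies at chr7:6730333-6730632 on the + strand, with 17 CpG. Nothing about DNA methylation or binding was measured in these cells.

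Nnat, which encodes neuronatin, a small membrane protein of developing neurons, led the list. It had an exon count in every kept cell (100%, Wilson 95% interval 98.5% to 100%), and its median level was 2010 CPM. Levels of different genes were compared per kb of annotated exon. On that scale Nnat averaged 1219 CPM per kb, followed by Snrpn with 134.8, Ndn with 118.97, Meg3 with 90.6 and H19 with 87.4 CPM per kb. Every other member was below 21 CPM per kb, from Blcap with 20.7 down to Igf2 with 0.246 and Ddc with 0.229. Together the 38 genes took 0.764% of all exon counts and 2.04% of all intron counts of the kept cells.

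**Figure D1:**
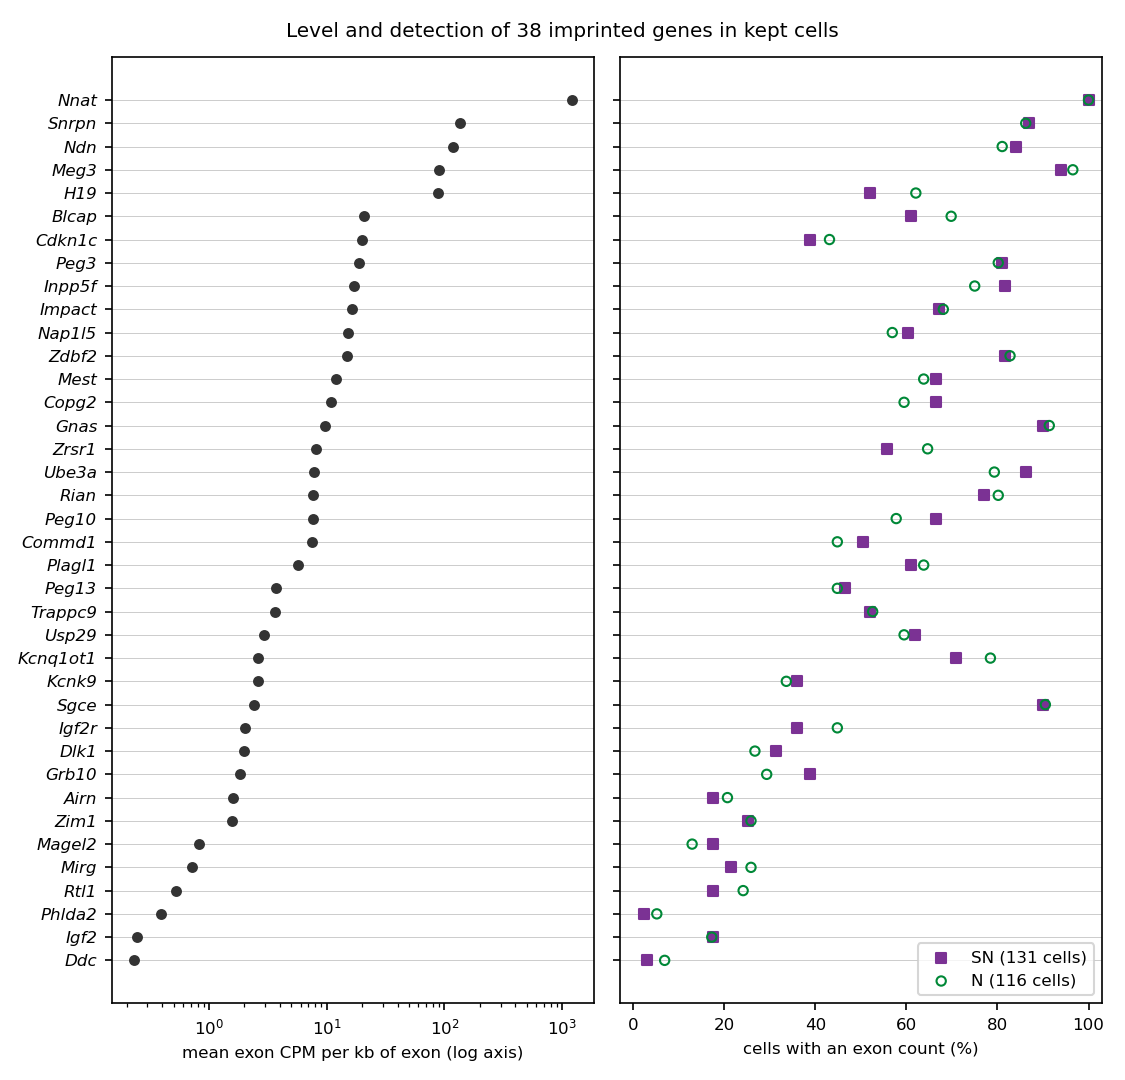
The left panel gives the mean exon CPM per kb of exon over kept cells on a log axis, and the right panel the percent of SN cells (squares) and N cells (open circles) with an exon count, for 38 imprinted genes ordered by level. Nnat stands at the top of both panels at 1219 CPM per kb and 100% of cells, while H19, with 87.4 CPM per kb, was counted in 51.9% of SN cells and 62.1% of N cells.

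Of the 38 genes, 23 had an exon count in at least 50% of kept cells, and 17 still did after each cell with enough reads had been thinned to 100000 exon counts. Meg3, a long non-coding RNA, was counted in 95.1% of kept cells, Gnas, which encodes a stimulatory G protein subunit, in 90.7%, and Sgce, a sarcoglycan, in 90.3%. Sgce had few reads where it was seen, with a median of 7.99 CPM in the cells that counted it, and its share after thinning was 59.1%. At the other end, Ddc, which encodes the decarboxylase of dopamine and serotonin synthesis, had exon counts in 12 cells, and Phlda2, a placental growth restrainer, in 9 cells.

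Genes of 1 locus differed in level per kb of exon. In the Dlk1-Meg3 locus, the maternally expressed non-coding RNA Meg3 averaged 90.6 CPM per kb and Rian, a host RNA of small nucleolar RNAs, 7.70 CPM per kb. Mirg, a host RNA of microRNAs, averaged 0.722 CPM per kb and was counted in 58 cells. Of the paternally expressed protein-coding genes there, Dlk1, a membrane ligand related to the Notch ligands, averaged 2.00 CPM per kb and was counted in 72 cells, and Rtl1, a retrotransposon-derived gene, 0.521 CPM per kb in 51 cells. In the Snrpn-Ube3a locus, Snrpn, a small ribonucleoprotein component, and Ndn, which encodes necdin, stood high. Ube3a, a ubiquitin ligase whose paternal copy is silenced in neurons, averaged 7.85 CPM per kb, and Magel2, a ligase regulator, 0.828 CPM per kb in 38 cells.

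In the Peg3 locus, Peg3, a zinc finger protein, averaged 18.8 CPM per kb and was counted in 80.6% of cells. Usp29, a deubiquitinase gene that starts beside it on the other strand, averaged 2.94 CPM per kb in 60.7% of cells, and Zim1 1.58 CPM per kb in 25.5%. In the Kcnq1ot1 locus, the antisense RNA Kcnq1ot1 was counted in 74.5% of cells, Cdkn1c, a cyclin-dependent kinase inhibitor, in 40.9%, and Phlda2 in 3.64%. Mest, a hydrolase-like protein, and Copg2, a coatomer subunit, were counted in 65.2% and 63.2% of cells. Igf2r, the receptor that clears IGF2, was counted in 40.1%, and Airn, the RNA antisense to it, in 19.0%. In the Peg13 locus, Trappc9, a vesicle tethering subunit, was counted in 52.2% of cells, the non-coding RNA Peg13 that lies inside it in 45.7%, and Kcnk9, a potassium channel, in 34.8%. Of the remaining genes, Zdbf2 was counted in 82.2% of cells, Inpp5f, a phosphoinositide phosphatase, in 78.5%, Impact in 67.6%, Blcap in 65.2%, Peg10, a retrotransposon-derived gene, and Plagl1, a zinc finger factor, in 62.3% each, and Nap1l5 in 58.7%.

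Over the kept cells, members of the same locus were only slightly more alike than other members. The 29 same-locus pairs had a median Pearson r of 0.212 for log2(CPM + 1), against 0.181 for the other pairs of the 36 genes counted in at least 25 cells. Cells differ in depth, which all pairs share: r with the log10 exon total ran to 0.488 for Snrpn. The highest of the 630 values was between H19 and Igf2 (r = 0.460). H19 was counted in 41 of the 43 cells that counted Igf2, against 56.7% of all kept cells. Meg3 and Rian gave 0.327, and Zrsr1 and Commd1, of which Zrsr1 lies inside Commd1 on the other strand, gave 0.102.

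H19, a long non-coding RNA expressed from the maternal copy and the partner of the growth factor gene Igf2, was counted in all cells of some clones and in no cell of others. Among the 62 clones with at least 2 kept cells, 18 had an H19 count in every cell, 18 in no cell and 26 in some cells only. All-on and all-off clones were each 14 SN clones and 4 N clones, and each set held 53 cells. At least 3 kept cells were present in 9 of the 18 all-on, 10 of the 18 all-off and 24 of the 26 mixed clones. The 1283 other genes whose number of counted cells lay within 10 of that of H19 had at least 34 mixed clones each (median 44), with a median of 14 all-on and 4 all-off clones, and at most 11 all-off clones. None of them had as few mixed clones as H19. The matching, here and below, used the number of counted cells only, not the level in them. In the cells that counted it, H19 had a median of 105.4 CPM, while Nap1l5, counted in a like number of cells, had 22.7 CPM. A gene of low level can be missed in some cells of a clone, and the part of level was not tested.

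The clones differed by level as well as by presence. In clone 24, an N clone, all 5 cells counted H19, between 510 and 2610 CPM. In clone 11, an SN clone, all 5 cells counted it, between 84.9 and 1213 CPM. In clone 62, an SN clone, none of 6 cells did, and in clone 3, an N clone, none of 5 did. In clone 16, the N clone with the most kept cells, 10 of 16 cells counted H19, with a median of 3.02 CPM and a highest value of 124.1 CPM. These clones were chosen after their values were seen, among the larger clones of their kind.

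Agreement was also measured between pairs of cells. A pair of cells agrees when both or neither count the gene. For H19, 66.7% of the 529 pairs within clones agreed, against 56.4% of 4254 pairs between different clones of the same plate and type, a difference of 10.3 percentage points. The median difference over 14701 genes was 1.63 points, and H19 ranked 110. An alternative chosen after seeing the data let every clone weigh equally in the share within clones. The share between clones stayed that of all 4254 pairs, so the compared shares are weighted differently. This holds for the other genes below too. The H19 difference was then 20.7 points, the highest of the 14701 genes. Over all pairs but without clone 16, the difference was 14.8 points and ranked 2. Cells of the same colour agreed in 65.0% of pairs and cells of different colours in 65.9% of pairs, within the clones that hold both.

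H19 also differed between plates. Plate 1 had it in 65.6% of cells, plate 2 in 73.8% and plate 3 in 28.6%. On plate 1, 6 clones were all on and 3 all off, on plate 2 these were 10 and 4, and on plate 3 they were 2 and 11. Within a single plate H19 was less set apart. On plate 1, 11.3% of 2481 genes of like detection had as few mixed clones as H19, on plate 2 it was 2.61% of 2756 genes, and on plate 3 it was 0.896% of 6137 genes. Its level followed depth weakly, with r = 0.255 to the log10 exon total. After thinning to 100000 exon counts, 16 of 59 clones were all on, 22 all off and 21 mixed, and none of 1134 genes of like detection had as few mixed clones.

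**Figure D2:**
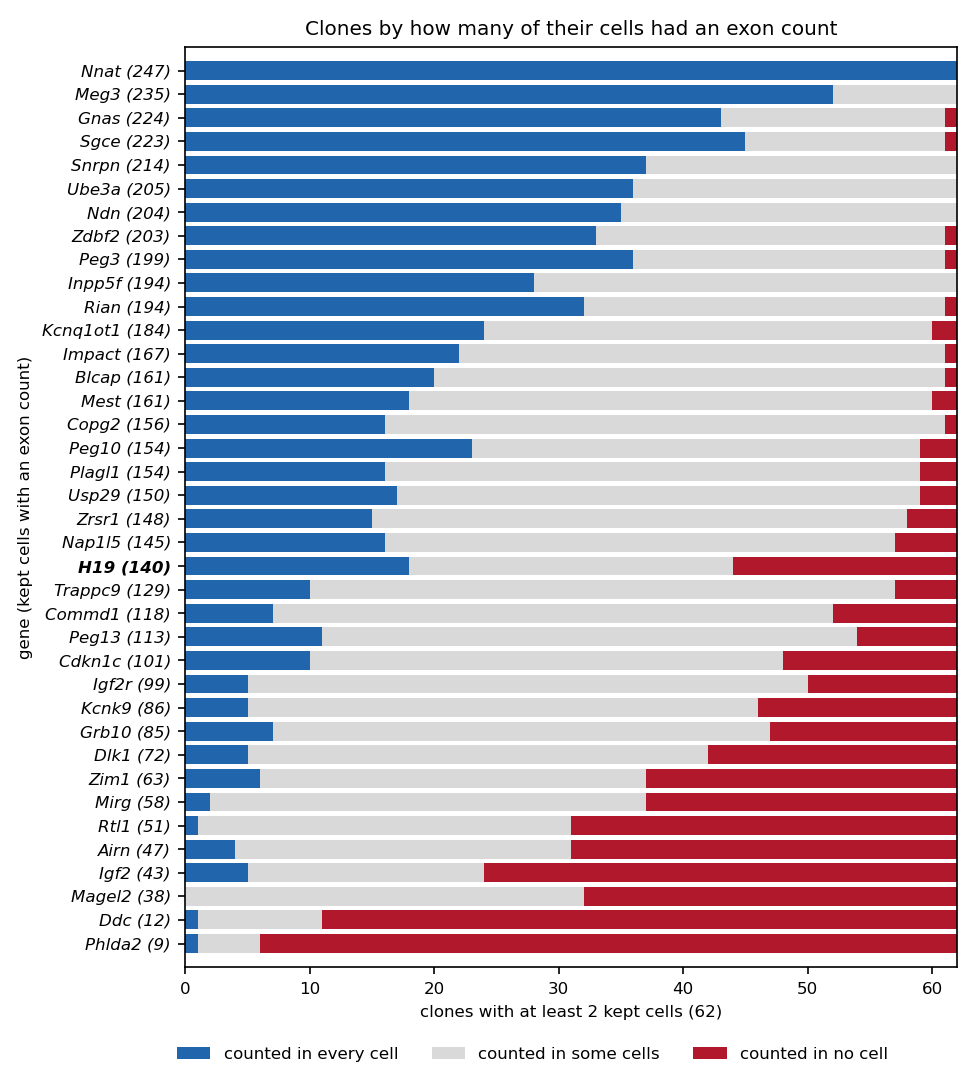
For each of 38 imprinted genes, the bar splits the 62 clones with at least 2 kept cells into those with an exon count in every cell, in some cells and in no cell; genes are ordered by the number of kept cells with a count, given in brackets. H19 has 18, 26 and 18 clones, while Nap1l5, counted in a like number of cells, has 16, 41 and 5.

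Igf2 came next to H19 among the members when clones weighed equally. It differed by 9.29 points over all pairs, by 9.93 points with clones weighing equally and by 5.60 points without clone 16. Grb10 had the largest difference of the list over all pairs, 13.1 points (rank 17), but 3.99 points with clones weighing equally, and 9.12 without clone 16. Kcnk9 and Dlk1 gave 11.5 and 8.87 points over all pairs, and 4.90 and 1.51 points with clones weighing equally. Inpp5f gave -8.04 points over all pairs and 0.63 points with clones weighing equally. Of the 32 members counted in enough cells to rank, 15 lay above the median of all genes.

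The genes whose level over cells was most like that of H19 were Crabp1, a retinoic acid binding protein (r = 0.499), S100a11, a calcium-binding protein (0.472), Igfbp4, an IGF-binding protein (0.465), Hmga2, a chromatin protein of early progenitors (0.462), and Igf2 (0.460), of 14994 genes. Marker lists of other cell types moved with H19 to a lower degree: r was 0.376 for 6 mesenchyme markers, 0.368 for 4 endoderm markers and 0.344 for 4 choroid plexus and hem markers, which share Ttr with the endoderm list. It was 0.313 for endothelium and pericyte, 0.251 for muscle and 0.222 for Cajal-Retzius markers, and lay between 0.022 (excitatory neurons) and 0.152 (GABAergic neurons) for the other lists, with 0.052 for radial glia. For Dlk1 the most similar genes were Col3a1 (r = 0.458), Col1a2 (0.434), Tnnc1 (0.410), Lum (0.402) and Serpinh1 (0.399). Col3a1, Col1a2 and Lum encode matrix proteins and are among the mesenchyme markers. All 6 mesenchyme markers were counted in both clone types, and their sum lay between 0 and 2280 CPM for SN cells (median 8.74) and between 0 and 2527 CPM for N cells (median 21.7). By plate, Dlk1 was seen in 27.8% of cells (plate 1), 45.0% (plate 2) and 14.3% (plate 3). The part of these cell types or of the plates in the levels of H19 and Dlk1 was not tested.

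The 2 tables divided the locus partners in unlike ways. Intron counts made up 53.7% of the exon and intron counts of the 38 genes, against 30.3% over all genes, but Blcap and Copg2 gave most of them: without these 2 genes the share was 13.6%. The median gene of the list had 14.4% intron counts, against 17.3% for the 14995 genes counted in at least 25 cells. Above 50% were 11 of the 38 members, against 22.4% of those genes, and 9 members had no intron count at all, against 23.2% of those genes. The 9 were Nnat, Ndn, Magel2, Kcnq1ot1, Peg13, Nap1l5, Igf2, Zrsr1 and Commd1. A gene without a counted intron gives 0 whatever its unspliced RNA, and which of the 9 are such genes was not examined. Even for a gene with counted introns, a count of 0 in all kept cells does not show that unspliced RNA was absent. Whether counting used strand is not given in the sources used here, so reads of overlapping genes cannot be assigned to either with certainty.

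Blcap and Nnat show this most directly. Nnat lies inside Blcap on the other strand, in GENCODE release M21. Blcap had 48540 exon counts and 1788760 intron counts, and Nnat had 1782423 exon counts. In 47.8% of kept cells the Blcap intron count equalled the Nnat exon count, and in 90.7% the counts differed by at most 1%. The difference ran from -7 to 810 counts. Blcap intron counts therefore cannot be told apart from a second count of Nnat reads.

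Copg2 had the highest intron share of the list, 98.9%, with 3323615 intron counts, found in 98.8% of cells, and 36554 exon counts. It overlaps Mest on the other strand, and in brain an extended Mest transcript is known to run into it. Mest had 39257 exon counts and 18101 intron counts, and the source of the Copg2 intron reads was not tested. Commd1, which holds Zrsr1, had 31346 exon counts but no intron count in any kept cell, and Zrsr1 had 23771 exon counts. With no intron read of Commd1 counted at all, this pair cannot show whether an inner gene reappears in the outer one. Trappc9, which holds Peg13, had 82.7% intron counts.

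Several members were seen in many more cells by introns than by exons. Ddc had intron counts in 79.4% of cells but exon counts in 12 cells (4.86%), all of which also had intron counts. Airn had intron counts in 78.5% of cells and exon counts in 19.0%, and its intron share was 88.6%. Rtl1 reached 87.3%, Usp29 75.97%, Ube3a 67.7%, Sgce 67.0%, Grb10 51.0% and Mirg 50.3%. Meg3, Peg3 and H19 lay at the low end with 2.53%, 2.67% and 0.101%.

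**Figure D3:**
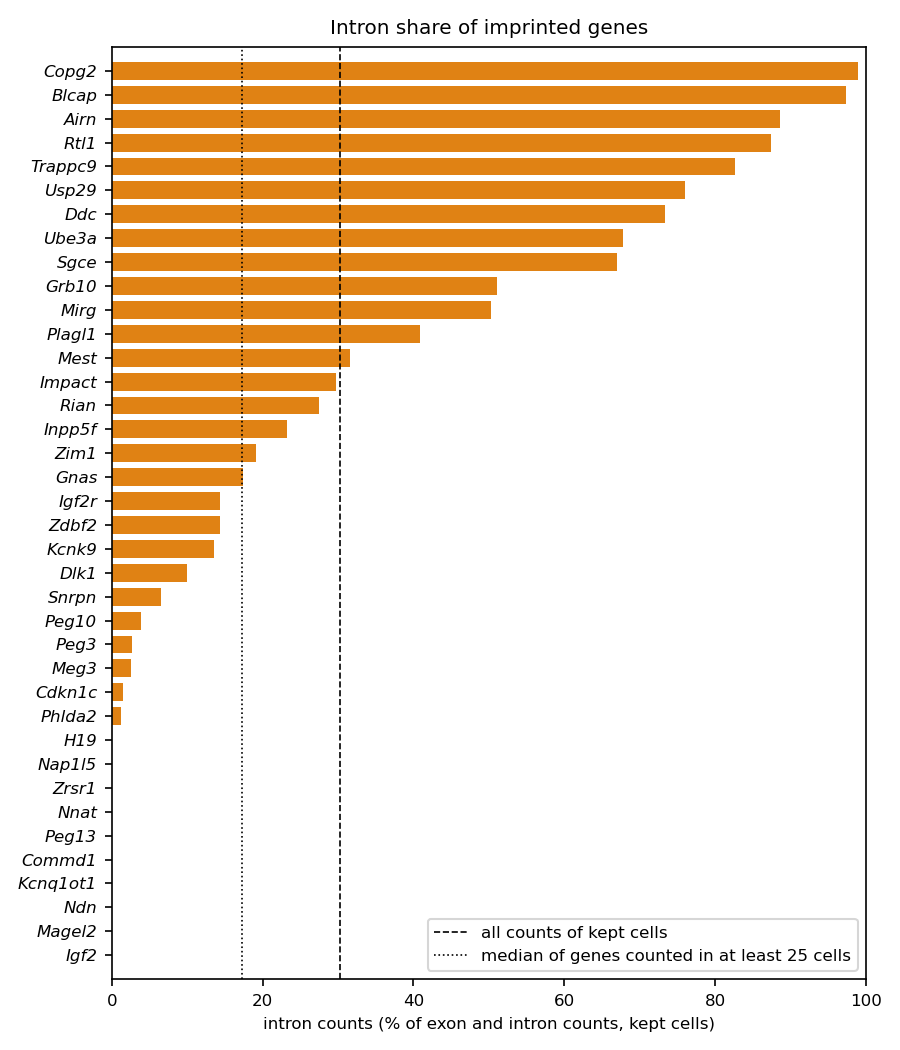
Intron counts as a percent of exon and intron counts, summed over kept cells, for 38 imprinted genes; the dashed line marks all counts of these cells (30.3%) and the dotted line the median of 14995 genes counted in at least 25 cells (17.3%). Copg2 and Blcap stand at 98.9% and 97.4%, and 9 genes stand at 0.

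SN and N clones were compared on exon counts summed per clone, over 42 SN clones and 20 N clones with at least 2 kept cells, with plate as a term in edgeR's quasi-likelihood test. No imprinted gene passed the adjusted threshold of 0.05: 0 of the 36 tested were called, and over all 11914 genes 0% were (adjusted p = 1 for each of the 36). At an unadjusted p under 0.05, Cdkn1c alone was lower in SN clones, and none was higher, where 1.74% of all genes were lower and 0.327% higher. Of the 36 genes, 13 lay above 0 with TMM scaling, against 40.2% of all genes, and 15 with RLE scaling. The median of the 36 was -0.22 on the log2 scale and that of all genes -0.11. With RLE scaling the medians were -0.14 and 0.00049, and 15 of the 36 lay above the median of all genes under either scaling. Phlda2 and Ddc were not tested, having too few counts. A clone sum does not tell fewer counted cells from less RNA per cell.

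Cdkn1c levels per clone ran from 0 to 153.8 CPM in SN clones (median 5.08) and from 0 to 390 CPM in N clones (median 40.9). The log2 difference was -1.49 ± 0.71 (SE, p = 0.0401, adjusted p = 1). The ranges overlap, and 29 of 42 SN clones and 19 of 20 N clones had a count. Within plates 1, 2 and 3 the difference was -1.68, -1.22 and -1.55. With limma-voom it was -3.48 with an adjusted p of 0.00437, and no edgeR or DESeq2 setting called it.

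H19 ran from 0 to 1569 CPM in SN clones (median 12.2, 28 of 42 clones above 0). In the larger N clones it ran from 0 to 2473 CPM (median 70.4, 16 of 20 above 0). By cell, H19 was counted in 51.9% of SN and 62.1% of N cells. Its log2 difference was -1.66 ± 0.93 (p = 0.0800), but 1.53 on plate 1 alone and -1.33 on plate 2 alone, so the sign was not the same on the plates, as for the next 2 genes. Igf2 ran from 0 to 26.5 CPM in SN clones and from 0 to 21.3 CPM in N clones, with a log2 difference of -2.06 ± 1.08 (p = 0.0620), but 4.98 on plate 1 alone and -1.73 on plate 2 alone. Dlk1 ran from 0 to 132.5 CPM in SN clones and from 0 to 132.7 CPM in N clones, with medians of 1.00 CPM in SN clones and 1.02 CPM in N clones and a log2 difference of -1.30 ± 1.02 (p = 0.204), but 1.05 on plate 1 alone and -0.94 on plate 2 alone. In the main edgeR fit none of these 3 reached an unadjusted p under 0.05 over all plates. With clone 16 left out, Igf2 did, but it was not called after adjustment.

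The smallest standard errors were those of Nnat, Ndn, Snrpn, Gnas, Inpp5f and Meg3, between 0.20 and 0.31. Nnat ran from 558 to 6547 CPM in SN clones (median 2349) and from 457 to 5725 CPM in N clones (median 2161), with a log2 difference of 0.04 ± 0.20. Ndn had medians of 416 CPM in SN clones and 328 CPM in N clones, and a difference of 0.21 ± 0.23. Snrpn had medians of 250.9 CPM in SN clones and 282.8 CPM in N clones (-0.05 ± 0.26), and Gnas of 112.9 CPM in SN clones and 107.8 CPM in N clones (-0.02 ± 0.29). Inpp5f gave 0.04 ± 0.29. Meg3 had medians of 1426 CPM in SN clones and 1645 CPM in N clones, with a difference of 0.20 ± 0.31. For the remaining tested members the log2 differences lay between -0.69 for Mirg and 0.57 for Nap1l5, none beyond 1.5 standard errors.

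On intron counts, 23 members were tested and again 0 were called, as for 0% of 11050 genes. At an unadjusted p under 0.05, Copg2 was higher in SN clones, where 1.55% of all genes were higher, and Ddc was lower, where 4.78% were lower. Copg2 intron levels ran from 2854 to 133977 CPM in SN clones (median 10354) and from 3639 to 25895 CPM in N clones (median 7940). The log2 difference was 0.85 ± 0.36 (p = 0.0194, adjusted p = 0.677), and it lay between 0.67 and 1.35 over the 7 fits. Copg2 exon counts gave 0.49 ± 0.46 (p = 0.288). Ddc intron levels ran from 0 to 122.98 CPM in SN clones (median 5.33) and from 2.39 to 250.8 CPM in N clones (median 8.98), with a log2 difference of -1.04 ± 0.51 (p = 0.0471, adjusted p = 0.789). Of the 23, 9 lay above 0, against 44.8% of all genes, and 12 above the median of all genes. That median was -0.10 with TMM and 0.17 with RLE scaling, under which 12 of the 23 lay above 0. Blcap introns, with counts close to those of Nnat exons, gave 0.19 ± 0.29.

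**Figure D4:**
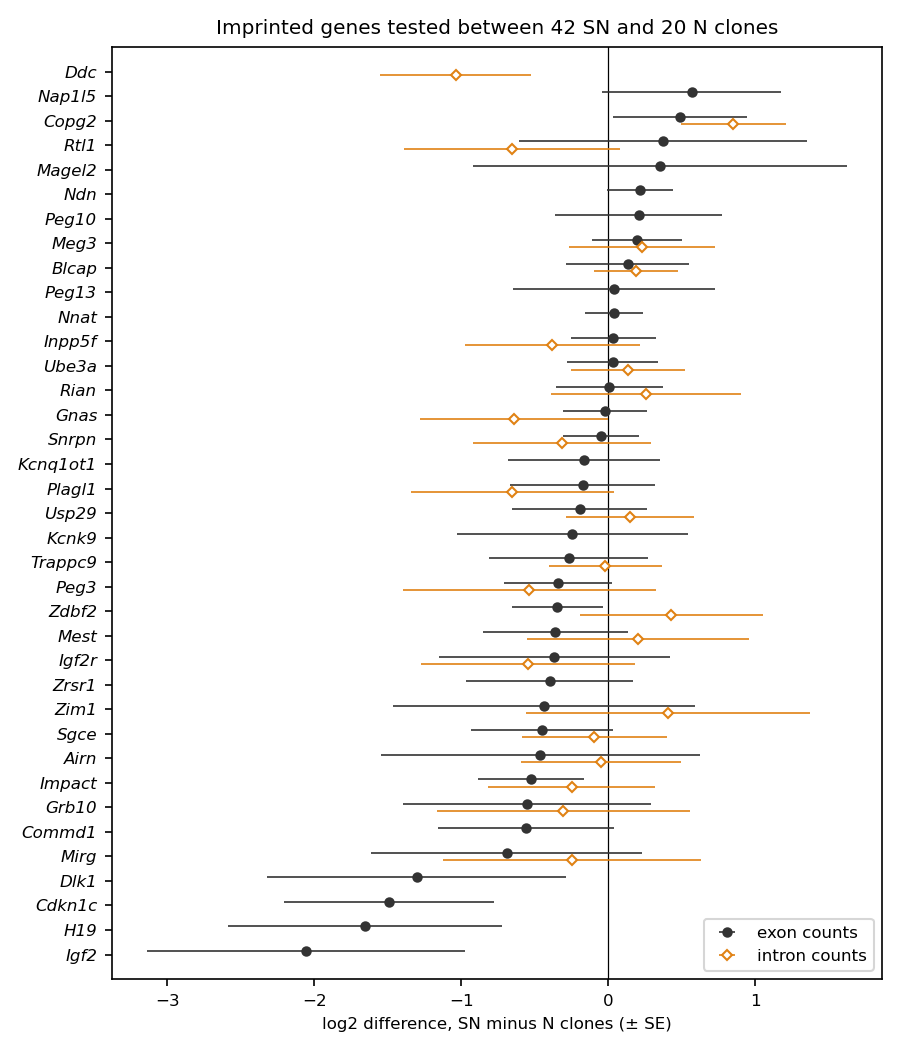
Log2 difference of SN minus N clones with its standard error, for the imprinted genes tested on exon counts (filled circles, 36 genes) and intron counts (open diamonds, 23 genes), with plate as a term. Cdkn1c, H19, Igf2 and Dlk1 lie lowest on exon counts, between -2.06 and -1.30, and Nnat, Ndn, Snrpn, Gnas and Inpp5f, which have the smallest standard errors, between -0.05 and 0.21.

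Green and red cells were compared within the 45 clones that hold both colours (31 SN and 14 N clones), on exon counts summed for each colour of a clone, with a term for every clone. Of the 29 members tested 0 were called, as for 0% of 7437 genes, and none reached an unadjusted p under 0.05, where 1.29% of all genes were higher and 0.35% lower in green. The smallest p was that of Zdbf2, at 0.133. Of the 29, 17 lay above 0, against 62% of all genes, and 14 above the median of all genes, 0.18. Within plates 1, 2 and 3 the median over all genes was 0.71, -0.85 and 0.60, so the plates did not share a direction. On intron counts 0 of 18 members and 0% of 4751 genes were called. None of the 18 reached an unadjusted p under 0.05, where 2.88% of all genes were higher and 0.337% lower, and 12 of the 18 lay above 0, against 65.9% of all genes.

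The chromosome 11 members were counted in both colours of many clones. Zrsr1, a splicing factor gene expressed from the paternal copy, was counted in both colours in 26 of 45 clones, in green only in 7, in red only in 9 and in neither in 3. Its levels ran from 0 to 315 CPM in green (median 2.87) and from 0 to 169.2 CPM in red (median 15.2), green was higher in 20 clones and red in 22, and the log2 difference was -0.48 ± 1.28 (p = 0.709). Within plates 1, 2 and 3 it was 1.42, -2.83 and -0.35. Commd1, a copper and endosome trafficking gene, was counted in both colours in 23 clones, in green only in 8, in red only in 6 and in neither in 8, with a difference of 0.11 ± 1.08 (p = 0.920), and 1.90, -0.48 and -0.71 within plates 1, 2 and 3. Neither gene was missing from 1 colour over all clones.

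Grb10, an adaptor that restrains insulin and IGF signalling and is expressed from the paternal copy in neurons and from the maternal copy in most other tissues, was counted in both colours in 12 clones, in green only in 14, in red only in 8 and in neither in 11. Its levels ran from 0 to 346 CPM in green (median 1.66) and from 0 to 207.9 CPM in red (median 0), with a log2 difference of 1.19 ± 1.11 (p = 0.286), and 0.32 within plate 1, the only plate with enough counts to test it alone. Ddc exon counts were seen in green only in 2 clones, in red only in 6 and in both in none, too few to test. Its intron counts were seen in both colours in 35 clones, in green only in 8, in red only in 1 and in neither in 1, with a log2 difference of 0.28 ± 0.47 (p = 0.559). Over the kept cells, Zrsr1 was counted in 59.5% of green and 60.6% of red cells, Commd1 in 47.1% of green and 48.9% of red, Grb10 in 35.3% of green and 33.0% of red, and Ddc in 3.92% of green and 6.38% of red. The standard errors of the exon differences of Grb10, Zrsr1 and Commd1 lay between 1.08 and 1.28 on the log2 scale. Differences of that size, and clearly larger ones, could therefore go undetected for these 3 genes at this depth. On simulated counts the colour test found 19% of genes altered by log2 2. A difference whose direction varied between clones would not show in the mean.

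**Figure D5:**
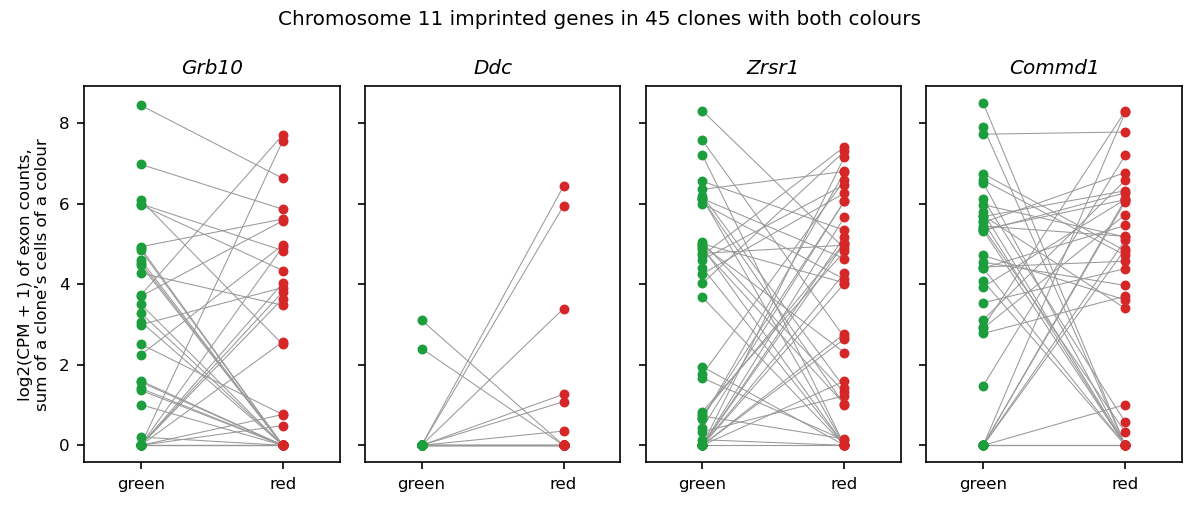
Level of the 4 chromosome 11 imprinted genes in the green and red cells of 45 clones, as log2(CPM + 1) of exon counts summed per clone and colour; lines join the colours of a clone. Lines of Grb10, Zrsr1 and Commd1 run both ways and no colour stands at 0 throughout, and Ddc has a count in 2 green and 6 red sums.

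Nnat was again the member of narrowest error, from 335 to 6705 CPM in green (median 2183) and from 509 to 6803 CPM in red (median 2169), with a difference of 0.03 ± 0.20. H19 was counted in both colours in 22 clones, in green only in 6, in red only in 7 and in neither in 10, and its log2 difference was -0.31 ± 0.79 (p = 0.691). Whether the colour difference itself differed between SN and N clones was tested as an interaction. Of the 29 members 0 were called, as for 0% of 7437 genes. None had an unadjusted p under 0.05, where 3.55% of all genes were higher and 0.0269% lower, and 21 lay above 0, against 77.4% of all genes. The members' median was 0.78 and that of all genes 0.99, and the median colour difference over all genes was 0.48 within SN clones and -0.37 within N clones. The smallest p among the members was that of Peg13, at 0.0674 with a difference of 3.55 ± 1.91. H19 gave -2.44 ± 1.49 (p = 0.106).

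A further list of 53 matched imprinted genes and a list of 22 genes that set or keep imprints were read beside the 38. Between SN and N clones, 28 and 18 of them were tested on exon counts and 0 were called. The smallest p in the first list were those of Phactr2 (log2 -2.22 ± 1.05, p = 0.0379), Nespas (-2.02 ± 1.23) and Dcn (-1.24 ± 0.92), and in the second those of Ctcf, which binds the H19 insulator (-0.61 ± 0.29, p = 0.0415), Trim28, a corepressor that ZFP57 recruits (-0.57 ± 0.29, p = 0.0546), and Zfp57 itself (-0.49 ± 0.41). On intron counts, 25 and 18 were tested and 0 called, led by Dcn (-1.82 ± 0.94), Cd81 (1.12 ± 0.69) and Adam23 (0.83 ± 0.52), and by Dnmt3b, a de novo methyltransferase (-3.36 ± 1.24, p = 0.00842, adjusted p = 0.520), Ctcf (-1.01 ± 0.52) and Setdb1 (-1.01 ± 0.64).

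Between green and red cells, 11 further imprinted genes and 18 regulators were tested on exon counts and 0 were called. Cd81 (0.95 ± 0.55), Mcts2 (1.85 ± 1.60) and Nap1l4 (0.65 ± 0.58) had the smallest p of the first, and Arid4b (1.43 ± 0.79), Tet2 (-1.03 ± 0.91) and Dnmt3a (0.72 ± 0.69) of the second. On intron counts, 13 and 16 were tested and 0 called, with H13 (1.53 ± 1.18), Nap1l4 (0.77 ± 0.79) and Bcl2l1 (0.93 ± 1.01) leading the first and Arid4b (0.81 ± 0.36, p = 0.0293, adjusted p = 1.00), Setdb1 (1.79 ± 1.20) and Ctcf (0.89 ± 0.65) the second. In the interaction the smallest p were those of Mcts2 (5.38 ± 2.90), Chrac1 (-4.68 ± 2.59) and Nap1l4 (1.50 ± 1.21), and of Dnmt3a (2.52 ± 1.44), Dnmt1 (2.61 ± 1.84) and Arid4b (2.16 ± 1.57), and 0 were called.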

How the data were processed

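The deposited tables hold whole-number counts of reads per gene in each cell, 1 table for exons and 1 for introns, with no scaling per the file headers. Per the submitters' processing notes the genome build was GRCm39, with STAR 2.7.9a and R 4.4.0 among the tools. The counting tool, annotation, strand and use of molecular identifiers are not given in the sources used here, so counts are treated as reads. Wilson intervals of shares of cells take the cells as independent. Cells of a clone share a lineage, so these intervals may be too narrow. Exon lengths and neighbours came from GENCODE M21, promoter sequences from RefSeq on GRCm38.p6. Symbols matched 52083 of 55359 IDs, and 0 columns were left unmapped.

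Of 284 labelled cells, 247 had at least 1000 detected genes: 131 SN and 116 N cells, or 153 green and 94 red cells. SN clones with at least 2 kept cells held 127 cells and N clones 114, and the clones of both colours 104 green and 86 red cells. The correlation of log2(CPM + 1) between kept cells was at most 0.831. Clone 45 has cells labelled with plates 2 and 3 and counts as plate 3 in tests.

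The 38 genes, the further lists, the tests and the rule for named genes were chosen with earlier results of these data known. The rule took all 38 members, the 3 genes of smallest p in each further list and comparison, and the 5 genes most like H19 and Dlk1. Summed counts were filtered with filterByExpr, TMM-scaled and tested with edgeR 4.0.16 (quasi-likelihood F test, R 4.3.3), with Benjamini-Hochberg adjustment over all genes tested. CPM of clone sums are TMM-scaled, and ± marks a standard error. Green and red cells were paired by the clone number in the labels. Organoids are not named, so p-values measure only the spread between clones. On simulated counts, the SN to N test (11914 genes) found 32% of genes altered by log2 2 and 85% of those altered by log2 4, and 7.14% of the genes it called had not been altered. The colour test (2952 genes) found 19% and 93%. Each simulated gene had 1 mean level over all clones and the dispersion of the fitted trend, not its own. These shares therefore need not hold for the genes of these data. DESeq2 1.42.0 and limma 3.58.1 were alternatives. Detection, clone patterns and intron shares were described with pandas 2.3.3 and scipy 1.17.1, with no test.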

Additional observations from a re-analysis of the deposited data

Results flagged for a closer look

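The 3 cells that the labels put in no clone entered no comparison. In 1 of them, with 4954 detected genes and 1689914 exon counts, 14 of the 38 imprinted genes had more than 3 exon counts, among them Nnat with 4649 and Meg3 with 4219, and H19 had 0. In another, with 13298 detected genes and 5976683 exon counts, 29 of the 38 did, with 15921 counts of Nnat, 13840 of Meg3 and 746 of H19. The last, with 130 detected genes and 2257 exon counts, had none above 3. Their clone type and colour are not known, and no comparison was made.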

How the results depend on the processing

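Over all genes, 0% were called between SN and N clones on exon counts, against 17.4% with no low-count filter, 1.45% with limma-voom, 0.0168% with DESeq2 and 0.0169% in cells with at least 2000 genes. On intron counts it was 0%, against 9.03% with no filter, 0.562% with DESeq2 and 0.00922% in cells with at least 2000 genes. Among the imprinted genes, 1 was called on exon counts with no filter (Ddc, log2 -3.53, adjusted p = 0.0238), 1 with limma-voom (Cdkn1c), and 1 on intron counts with no filter (H19, -2.64, adjusted p = 0.00969), and 0 under every other setting run. In the colour comparison, where 0% were called, it was 0.0134% with RLE scaling, 0.00264% with no filter, 0.0134% with limma-voom and 0.0152% on plate 3 alone, none of them an imprinted gene. Without the clone term, the replicate block of this pairing, it was 0% on exon counts and 0.0842% on intron counts. SN and N clones share no number that pairs them. The only reversal with a p under 0.05 was that of Igf2 on plate 1 alone (4.98). Mixed H19 clones were 41.9% of clones and 55.0% on plate 1 alone. The intron share of 53.7% was 52.4% as the median over cells of the share per cell, and 13.6% without Blcap and Copg2. The cause of these changes was not tested. After thinning, 17 of the 38 genes were counted in at least 50% of cells, against 23 without it.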
